A study of Mus musculus with 16 samples.

Results

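Divergent protein-coding promoters are stretches of DNA that separate the starts of a pair of coding genes lying head to head on opposite strands. They were taken from the mm10 GENCODE M21 annotation as intervals of at most 1000 bp between a gene start on the minus strand and a gene start to its right on the plus strand, on chromosomes 1 to 19. The rule gave 734 gene pairs with 1448 genes, which is 7.0% of the 20807 coding genes on these chromosomes. Accessible regions were made by merging the ATAC-seq peaks of all 16 libraries, and 706 of 291316 merged regions (0.242%) overlapped such an interval. A region was found at 713 of the 734 pairs, 13 pairs held 2 regions, and at 21 pairs no library had a peak. The starts lay 1 to 987 bp apart, with a median of 128 bp.

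A divergent promoter is usually a nucleosome-poor stretch that serves as the upstream sequence of both genes, so that transcription leaves it in opposite directions from separate start sites. Such promoters in mammals are commonly rich in CpG and often belong to housekeeping genes of DNA repair, mitochondria, protein turnover and the cell cycle. ATAC-seq reads where the Tn5 transposase can insert into open chromatin. p300, encoded by Ep300, acetylates histones at enhancers and promoters, and Tet2 oxidises methylated cytosine in DNA.

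HSPCs, the stem and progenitor cells of the blood, had been sorted from bone marrow of mice, and each library came from a pair of age-matched mice of the same genotype, with 4 libraries for each of 4 genotypes. All mice were on a C57BL/6 background, carried Ep300 fl/fl and were injected with poly(I:C) at 6 to 8 weeks of age. WT mice were Ep300 fl/fl without Cre, P300KO mice were Mx1-Cre; Ep300 fl/fl, TET2KO mice were Ep300 fl/fl; Tet2-/-, and P300KO_TET2KO mice were Mx1-Cre; Ep300 fl/fl; Tet2-/-. Mx1-Cre is switched on by the interferon response to poly(I:C) and is not limited to HSPCs, and Tet2-/- is a germline deletion. The study's methods place experiments 2 weeks after the injections unless another time is given, and they give none for the ATAC-seq.

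The DNA between the starts shows how compact these promoters are. The next lines give, on the plus strand of mm10, the whole interval of 3 pairs named for their rank. Hjurp/Trpm8 (chr1:88277634-88277660) had the strongest peaks of all pairs, Cib1/Gdpgp1 (chr7:80232814-80232864) and Hspa14/Cdnf (chr2:3512815-3513029) were also among the 5 strongest. Capitals mark any of 8 fixed strings on either strand, none of which contains another. The first is GGGCGG, known as the GC box. The next, CCAAT, is bound by the factor NF-Y. CCGGAAG is a string of the ETS family of factors. The CRE, which is TGACGTCA, belongs to the CREB family. The NRF1 string has 10 letters. CACGTG is known as the E-box. The core promoter element TATAAA is the TATA box. The last, AGATAA, is a string of the GATA family.
Hjurp/Trpm8: ggggagggacgagagggagggtccgcc
Cib1/Gdpgp1: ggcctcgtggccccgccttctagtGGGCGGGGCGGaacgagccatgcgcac
Hspa14/Cdnf: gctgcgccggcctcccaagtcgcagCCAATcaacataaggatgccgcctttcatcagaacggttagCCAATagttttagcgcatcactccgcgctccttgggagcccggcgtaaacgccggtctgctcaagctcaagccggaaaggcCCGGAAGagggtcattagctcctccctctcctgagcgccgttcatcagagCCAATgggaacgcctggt
The Hjurp/Trpm8 interval held none of the strings, Cib1/Gdpgp1 held 2 GGGCGG that overlap each other by 1 base, and Hspa14/Cdnf held 3 CCAAT and 1 CCGGAAG.

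The next set shows the known pairs with starts at most 300 bp apart and the 4 pairs that had the lowest p in a comparison between genotypes, none of which passed the test. The known pairs are Mrps12/Sars2 (chr7:28741821-28741991), and Wrap53/Trp53 (chr11:69580256-69580358). The others are Atp5c1/Kin (chr2:10080511-10080592), Vta1/Nmbr (chr10:14705561-14705590), Hras/Lrrc56 (chr7:141194006-141194156) and the imprinted pair Peg3/Usp29 (chr7:6730432-6730577).
Mrps12/Sars2: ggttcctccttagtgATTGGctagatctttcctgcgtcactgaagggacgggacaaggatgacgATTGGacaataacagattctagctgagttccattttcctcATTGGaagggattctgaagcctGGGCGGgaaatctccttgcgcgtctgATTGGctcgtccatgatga
Wrap53/Trp53: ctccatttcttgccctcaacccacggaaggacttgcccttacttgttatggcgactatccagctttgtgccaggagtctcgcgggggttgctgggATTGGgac
Atp5c1/Kin: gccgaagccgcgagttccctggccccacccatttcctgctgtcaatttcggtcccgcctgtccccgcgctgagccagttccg
Vta1/Nmbr: gcttgtccgcgacgggtgcccgaaggagac
Hras/Lrrc56: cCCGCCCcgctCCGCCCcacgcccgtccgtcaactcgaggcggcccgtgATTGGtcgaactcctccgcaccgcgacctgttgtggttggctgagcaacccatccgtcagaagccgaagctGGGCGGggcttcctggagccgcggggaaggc
Peg3/Usp29: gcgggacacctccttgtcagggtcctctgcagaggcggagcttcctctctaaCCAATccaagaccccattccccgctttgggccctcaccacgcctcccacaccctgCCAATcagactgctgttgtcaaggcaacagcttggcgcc
Mrps12/Sars2 held 4 CCAAT and 1 GGGCGG, Wrap53/Trp53 held 1 CCAAT, Atp5c1/Kin and Vta1/Nmbr held none of the strings, Hras/Lrrc56 held 3 GGGCGG and 1 CCAAT, and Peg3/Usp29 held 2 CCAAT. The histone pair Hist1h2bq/Hist1h2ao (chr13:21810198-21810464) had the widest peaks, and Bola1/Hist2h2ab (chr3:96219710-96219864) came next.
Hist1h2bq/Hist1h2ao: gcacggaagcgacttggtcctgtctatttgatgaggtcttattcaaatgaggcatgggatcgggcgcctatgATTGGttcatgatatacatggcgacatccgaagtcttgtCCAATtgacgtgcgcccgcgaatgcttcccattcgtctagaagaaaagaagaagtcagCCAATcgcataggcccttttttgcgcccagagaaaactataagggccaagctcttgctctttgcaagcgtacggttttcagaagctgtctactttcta
Bola1/Hist2h2ab: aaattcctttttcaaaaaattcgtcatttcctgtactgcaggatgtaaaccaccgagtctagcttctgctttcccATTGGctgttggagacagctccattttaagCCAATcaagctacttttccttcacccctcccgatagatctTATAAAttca
These intervals had a GC content of 47.9% and 40.6% and held 3 and 2 CCAAT, and the second held a TATAAA. A string found in the sequence is a description and not a bound site.

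To set the strings against other promoters, a window of 300 bp was centred on the strongest summit of each region found in all 16 libraries. Single coding promoters overlap the start of a coding gene that is in no such pair. They can include head-to-head genes whose starts overlap, which the rule leaves out. CCGGAAG was present in 29.9% of the 685 windows at divergent promoters and in 18.3% of the 9771 windows at single coding promoters. It was present in 23.1% of the 528 single promoter windows with a divergent lncRNA start within 1 kb. CCAAT was present in 45.3%, 36.2% and 42.4% of the same windows. The GC box differed less, at 74.0%, 71.7% and 77.8%, and TATAAA was rare in all of them at 3.94%, 4.06% and 3.60%. The median observed over expected CpG ratio was 0.868 at divergent, 0.814 at single and 0.869 at lncRNA-partner promoters. These shares describe sequence and were not tested.

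The lists differed in ways that genotype does not account for. Replicates 1 and 2 of every genotype form deposit set 1, whose labels name a merged peak file, and replicates 3 and 4 form deposit set 2. Set 1 lists held 84704 to 108200 peaks and set 2 lists 127437 to 134268. The percentage with a −log10 q reaching 2 was lowest in WT replicate 1 at 44.8% and in WT replicate 2 at 63.0%, and was 71.1% to 97.4% in the other libraries. The depth of each library is unknown, since the lists hold no counts and the study's methods give only a minimum meant for every sample. Of 10 HSPC marker genes, 9 had a peak within 1 kb of the start in all 16 libraries (Mecom had one in 1 library), against 0 of 4 B cell genes, 0 of 4 T cell genes, 3 of 4 erythroid, 1 of 4 neutrophil and 2 of 3 macrophage genes, and 1 of 4 genes of other tissues (Myod1). In bulk samples, fewer cells with an open site and less opening per cell cannot be told apart.

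Divergent promoters were open in nearly every library and stood near the top of each list. Of the 706 regions, 685 (97.0%) were found in all 16 libraries, against 82.9% of 11785 single coding promoter regions and 13.3% of all merged regions. By gene, 699 of the 734 pairs (95.2%) had a region found in all 16 libraries, against 10301 of 19359 other coding genes (53.2%), where a pair offers an interval and a single gene only its start base. Strength was described by rank percentile, the place of a region's strongest peak by −log10 p within its own list, where 100 is the strongest peak. The median divergent promoter stood at 96.9 ± 0.348 (SD over 16 libraries), the median single promoter at 91.9 ± 0.821, and the difference was 4.98 ± 0.494 points. The difference was above 0 in 16 of 16 libraries. Of the 685 regions, 90.4% had a mean rank percentile of at least 90, against 63.5% of single promoters.

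Peaks at divergent promoters were also wider and held more summits. The median width per library was 987 to 1154 bp at divergent promoters and 793.5 to 1035 bp at single promoters, and the difference within a library was 142 ± 24.8 bp (SD, n = 16). A peak interval held a mean of 2.79 summits at divergent promoters and 2.34 at single promoters, a difference of 0.446 ± 0.0666. Both differences were above 0 in 16 of 16 libraries. Single promoters with a divergent lncRNA start lay between, and divergent promoters exceeded them in 16 of 16 libraries by 72.8 ± 16.2 bp in width, 0.338 ± 0.051 summits and 1.85 ± 0.355 points of rank (SD, n = 16).

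**Figure D1:**
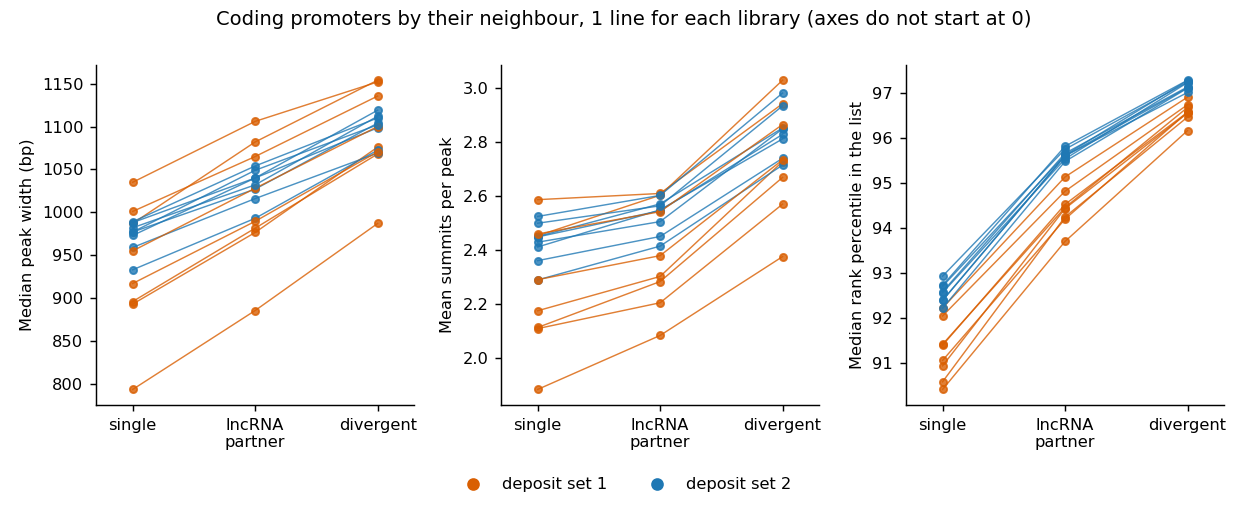
Median peak width (bp), mean summits per peak and median rank percentile of single coding promoters, single coding promoters with a lncRNA partner and divergent coding promoters, with 1 line for each of the 16 libraries and colours for the deposit sets. In each panel the divergent value is the highest of the 3 in all 16 libraries.

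The structure of the peak followed the distance between the starts. Where the starts were 1 to 99 bp apart (289 regions), the strongest peak of the region covered both starts in 99.3% ± 0.345 of regions (SD over 16 libraries). The shares were 97.2%, 99.0% and 96.8% at 100 to 199, 200 to 299 and 300 to 499 bp. At 500 bp or more (66 regions) the share was 44.7% ± 3.59. Regions held 2.98 ± 0.157 summits in the shortest class and 3.51 ± 0.108 in the longest. The number of summits that lay between the starts was 0.446, 0.797, 0.892, 1.17 and 1.61 in the 5 classes in order of distance, where the longer interval also offers more room. The strongest summit of a region lay between the starts in 40.9% ± 1.98 of regions in the shortest class and in 66.6% to 74.4% in the other 4. Median width was 1066 ± 49.6 bp in the shortest class and 1189 ± 67.9 bp in the longest, and the median rank percentile was highest at 300 to 499 bp (98.4 ± 0.37) and lowest at 1 to 99 bp (95.8 ± 0.444).

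**Figure D2:**
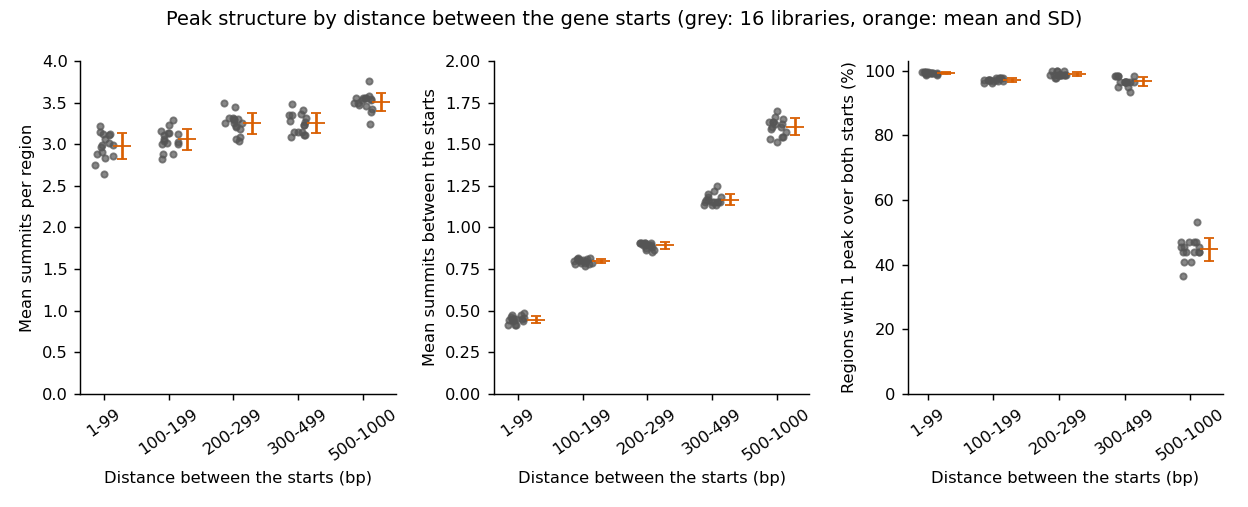
Mean summits per region, mean summits between the starts and the share of regions whose strongest peak lay over both starts (%), by distance between the starts (bp). Grey points are the 16 libraries and orange marks their mean and SD, and the share falls from 96.8% at 300 to 499 bp to 44.7% at 500 bp or more.

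Over all 685 regions, 615 (89.8%) had their strongest peak over both starts in every library and 33 in none. Weaker peaks of the same region were not considered in these counts. The 33 had a median distance of 743 bp and 29 of them had starts at least 500 bp apart. The number of summits per region in a library averaged 1.0 to 9.06, 503 regions held at least 2 summits in every library and 6 held 1 summit in every library. The strongest summit lay a median of 12 bp upstream of the nearest start at divergent promoters and 19 bp upstream at single promoters. It was within 150 bp of a start in 88.6% and 72.2% of them, where a divergent promoter has a second start that can be near. Among the 126 regions with starts at least 300 bp apart, the strongest summit was nearer the minus-strand start in 66 and nearer the plus-strand start in 60.

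**Figure D3:**
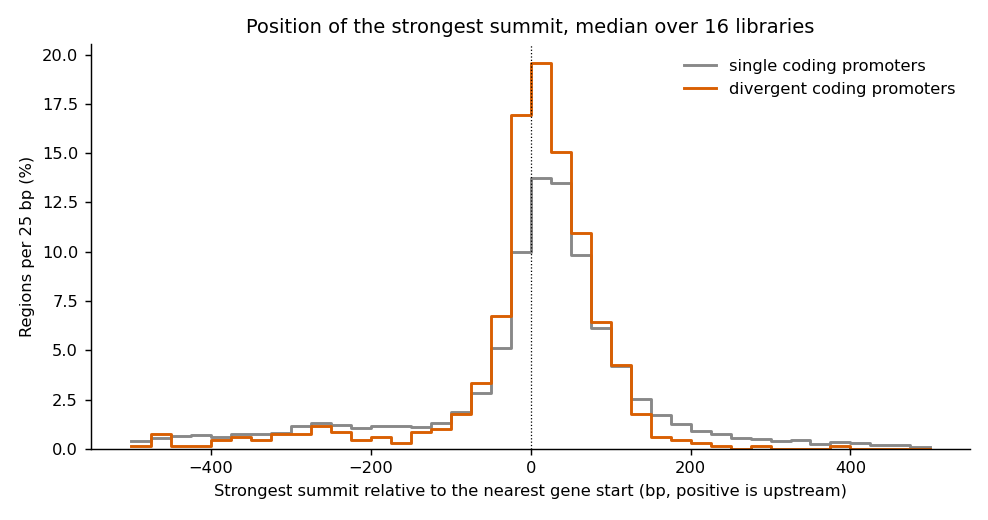
Share of regions (%) per 25 bp by the position of the strongest summit relative to the nearest gene start (bp, positive is upstream), for 685 divergent and 9771 single coding promoters, as the median position over 16 libraries. The divergent curve is higher close to the start, with 88.6% of regions within 150 bp against 72.2%.

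Gene groups fixed by symbol covered much of what divergent promoters are known for. DNA repair and replication genes had 20 regions, of which 19 were found in all 16 libraries (97.0% of all members were), with a median rank percentile of 97.9. Among them, Mcm4/Prkdc joins a subunit of the replicative helicase to the DNA-dependent protein kinase and had a mean rank of 99.7, Xrcc3/Zfyve21, with the recombination repair gene Xrcc3, had 99.5, and Brca1/Nbr1 had 99.0 with a width of 1455 bp. The exception, Rad51c/Tex14, was found in 1 library at a rank of 9.15, and a further pair, Pinlyp/Xrcc1, had no region. All 18 mitochondrial ribosome regions were found in 16 libraries, with a median rank of 97.4, from 81.2 at Eme2/Mrps34 to 99.5 at Mrpl41/Pnpla7. All 7 proteasome regions, all 9 with an RNA polymerase subunit gene and all 5 with a tRNA synthetase gene were also found in 16 libraries, with median ranks of 97.2, 95.6 and 97.3. Chaperone pairs had 13 regions, 12 of them in 16 libraries, with a median rank of 97.7, among them Hspa1a/Hspa1l, the inducible Hsp70 gene and its testis relative, at 95.5. The lowest was a region of Sirt1/Dnajc12 at 31.9. Zinc finger genes had 21 regions, 20 of them in 16 libraries, with a median rank of 96.3 and the lowest at 21.4, and 2 of their pairs had no region. The median over all members was 96.8, so these medians lay close to that of the whole set.

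The 12 histone regions had the lowest median rank of the groups at 94.4 (91.6 to 96.8) and the largest median width at 1467 bp, against 1097 bp for all members. Most were H2A and H2B genes facing each other, which supply the core of the nucleosome during DNA replication. Hist1h2bq/Hist1h2ao was covered over 2433 to 3425 bp by 7 to 11 summits, with a mean of 3067 bp and 9.06 summits. Widths overlapped between the genotypes, as WT libraries gave 2984 to 3409 bp, P300KO 2433 to 3417 bp, TET2KO 2920 to 3374 bp and P300KO_TET2KO 2684 to 3425 bp. Copies of these genes are near-identical, and how reads that match several copies were treated is not given in the sources used here, so values at histone pairs are uncertain.

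Among pairs well known as head-to-head neighbours, 5 met the rule, and Hspd1/Hspe1, Surf1/Surf2, Ppat/Paics and Psmb9/Tap1 did not, because their annotated starts overlap. These 4 have plus-strand starts 111 to 271 bp to the left of the minus-strand start. Of those that met the rule, Atm/Npat (starts 307 bp apart), which joins the DNA damage kinase Atm to a regulator of histone genes, ranked at 98.1 to 99.9 in the 16 libraries with a width of 996 to 1228 bp and 1 to 3 summits. Mcm4/Prkdc (466 bp) ranked at 98.7 to 99.95, Gart/Son (554 bp), with a purine synthesis enzyme and a splicing factor, at 97.6 to 99.4, and Mrps12/Sars2 (172 bp), which pairs a mitochondrial ribosomal protein with the mitochondrial seryl-tRNA synthetase, at 97.98 to 99.5. Wrap53/Trp53 (104 bp), the promoter of the tumour suppressor p53 and of a telomerase factor, was lower at 85.8 to 92.9 and was 563 bp wide on average. The ranges of the 4 genotypes overlapped in 4 of these 5 pairs. At Mrps12/Sars2 the P300KO libraries (98.95 to 99.5) lay above the P300KO_TET2KO libraries (98.4 to 98.8), at a change of -1.65 ± 0.863 points among common regions (SE; limma adjusted p = 0.585).

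Hjurp/Trpm8, whose first gene loads the centromeric histone CENP-A, had the highest rank of all, at 99.97 to 100 in the 16 libraries. Tmem126b/Dlg2 (mean 99.9), BC005624/Usp20 (99.9), Hspa14/Cdnf (99.9) and Cib1/Gdpgp1 (99.9) followed, and the ranks of these 5 differed by less than 1 point in every library. The widest after the histone pairs were Hnrnpa2b1/Cbx3 (mean 2301 bp), which joins an RNA-binding protein gene to a heterochromatin protein 1 gene, Pecam1/Milr1 (2156 bp), with a platelet and endothelial adhesion molecule that HSPCs also carry, and Hnrnpdl/Enoph1 (2144 bp). Lamtor2/Ubqln4 was among the 3 with most summits, at a mean of 6.88. At Pecam1/Milr1 the starts are 598 bp apart and the strongest summit lay 1692 bp to the right of the Pecam1 start. The strongest peak of this region covered both starts in 2 of 16 libraries.

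The 21 regions found in fewer than 16 libraries were weak where they were found, with mean ranks of 3.92 to 57.7. In 6 of them the same pair had another region found in 16 libraries. Of examples chosen after their values were seen, Col4a4/Col4a3, basement membrane collagens, was found in 10 libraries, Kirrel2/Nphs1, genes of kidney podocytes, in 4, Duox2/Duoxa2, an NADPH oxidase of the thyroid and its maturation factor, in 12, and Slc27a5/Trim28, with a broadly expressed corepressor, in 1. Among the 21 pairs with no region were Hist1h2ba/Hist1h2aa, the testis H2B and H2A variants, and Rnf151/Rps2, with a ribosomal protein gene. At 4 of these 21 pairs, a region of all 16 libraries lay within 1 kb of the interval, for example 45 bp from Pinlyp/Xrcc1. The gene start used here is the outermost annotated one and may not be the one in use.

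No divergent promoter was called gained or lost between genotypes by a strict rule, which could call few of them. A region was called gained with a peak in all 4 libraries of the genotype named first and in 0 of 4 of the other, and lost in the reverse case. Between P300KO_TET2KO and TET2KO, 0 of 706 members were gained and 0 lost, where 0.0587% and 0.013% of all 291316 regions were called. P300KO against WT gave 0 and 0 (0.0134% and 0.0106% of all regions), TET2KO against WT 0 and 0 (0.0137% and 0.00721%), and P300KO_TET2KO against P300KO 0 and 0 (0.0656% and 0.0312%). Shares this low would come to less than 1 of 706 regions, so the members' counts do not stand apart from the background. A region found in all 16 libraries cannot be called by this rule or by the looser one below. Such regions were 685 of the 706 members (97.0%) but 13.3% of all merged regions, so the outcome was fixed in advance for most members. These contrasts share libraries and are not independent of each other. The share of members with a peak was 98.3% ± 0.648 for WT (SD, n = 4), 98.2% ± 0.454 for P300KO, 98.5% ± 0.468 for TET2KO and 98.3% ± 0.292 for P300KO_TET2KO. The 4 ranges overlapped. Presence differed more between the deposit sets, at 97.6% to 98.3% in set 1 and 98.3% to 99.0% in set 2. Within set 1, libraries without Tet2 (98.0% to 98.3%) lay above those with it (97.6% to 97.9%). The Tet2 difference in set 1 was 0.354 points both with p300 intact and without p300. In set 2 it was 0.0708 and -0.0708 points.

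A looser rule, at least 3 of 4 against at most 1 of 4, called 3 members. It called 1.18% of all regions gained and 0.525% lost in P300KO_TET2KO against TET2KO, 0.737% and 0.594% in P300KO against WT, 0.643% and 0.564% in TET2KO against WT, and 1.1% and 0.585% in P300KO_TET2KO against P300KO. Duox2/Duoxa2 had a peak in 3 WT, 1 P300KO, 4 TET2KO and 4 P300KO_TET2KO libraries and was lost in P300KO against WT and gained in P300KO_TET2KO against P300KO. Where found, its rank was 55.4, 36.3 and 40.1 in WT, 35.5 in P300KO, 46.7, 68.9, 49.4 and 44.6 in TET2KO and 37.9, 52.1, 31.3 and 30.1 in P300KO_TET2KO. The values of WT, TET2KO and P300KO_TET2KO overlapped, and the only P300KO value was below those of WT. Nr2e1/Ostm1, with a nuclear receptor of neural stem cells, was found in 0 WT and 3 TET2KO libraries and the weaker region of P3h4/Fkbp10 in 1 WT and 3 TET2KO libraries, both called gained in TET2KO against WT. Nr2e1/Ostm1 had mean rank 10.3 and P3h4/Fkbp10 25.5 where found.

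Peaks at divergent promoters held more summits on average in libraries without p300. WT libraries had 2.38, 2.67, 2.74 and 2.81 summits per peak in the order of replicates 1 to 4, P300KO 3.03, 2.73, 2.85 and 2.72, TET2KO 2.73, 2.57, 2.85 and 2.83, and P300KO_TET2KO 2.865, 2.94, 2.98 and 2.93. All 4 P300KO_TET2KO libraries were above all 4 TET2KO libraries, while WT and P300KO overlapped. P300KO_TET2KO and TET2KO libraries also overlapped when only the strongest 50000 peaks, only peaks over the interval or only starts at most 300 bp apart were used. The mean was 2.88 over the 8 libraries without p300 and 2.70 over the 8 with it, a difference of 0.183. The difference was 0.356 in deposit set 1 and 0.00766 in set 2 with Tet2 intact, and 0.251 and 0.119 without Tet2. It was thus above 0 in 4 of 4 strata and much smaller in set 2 with Tet2 intact.

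Peaks were also wider on average without p300 and without Tet2. Median widths in the order of replicates were 987, 1068, 1069 and 1104 bp in WT, 1154, 1076, 1098.5 and 1072.5 bp in P300KO, 1100, 1070.5, 1110 and 1102 bp in TET2KO and 1135.5, 1152, 1119 and 1112 bp in P300KO_TET2KO. Every P300KO_TET2KO library was above every TET2KO library, the nearest by 1112 to 1110 bp, and these 2 overlapped among peaks whose −log10 q reached 2. WT and P300KO overlapped. The p300 difference was 38.6 bp, from 87.5 bp (set 1, Tet2 intact) to -1.0 bp (set 2, Tet2 intact), and the Tet2 difference was 34.0 bp, from 19.5 to 57.8 bp over its 4 strata. By region, 400 of 685 (58.4%) had more summits on average without p300, 155 had fewer and 130 had the same number, and 537 (78.4%) were wider. In all 4 strata of deposit set and Tet2 genotype, 21 regions (3.07%) had more summits and 121 (17.7%) were wider, and 2 (0.292%) and 11 (1.61%) regions had fewer and were narrower. These shares lay close to those of the 9771 single promoters. There 3.37% had more summits and 16.5% were wider in all 4 strata, and 0.348% and 1.71% had fewer and were narrower.

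The same shift was measured outside divergent promoters. At single promoters the p300 difference was 0.174 summits and 41.1 bp, at lncRNA-partner promoters 0.151 summits and 38.0 bp, and 57.9% of single promoters had more summits without p300 and 80.6% were wider. For Tet2 loss, widths differed by 34.0 bp at divergent and 54.1 bp at single promoters, and summits by 0.098 and 0.151. Over all peaks, lists without p300 held 0.0764 more summits per peak, a median peak wider by 30.4 bp and 8.24 percentage points more peaks with a −log10 q reaching 2, which moved with the result and whose part in it was not tested. That share of peaks was 21.9 points higher in set 1 and 1.0 point lower in set 2 with Tet2 intact, and 8.55 and 3.5 points higher without Tet2. Lists without Tet2 held 0.0991 more summits per peak, a median peak wider by 44.1 bp and 10.7 points more of those peaks (27.25 points more in set 1 and 1.5 points fewer in set 2 with p300 intact, and 13.9 and 3.0 points more without p300), and the part of this in the widths was not tested either.

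**Figure D4:**
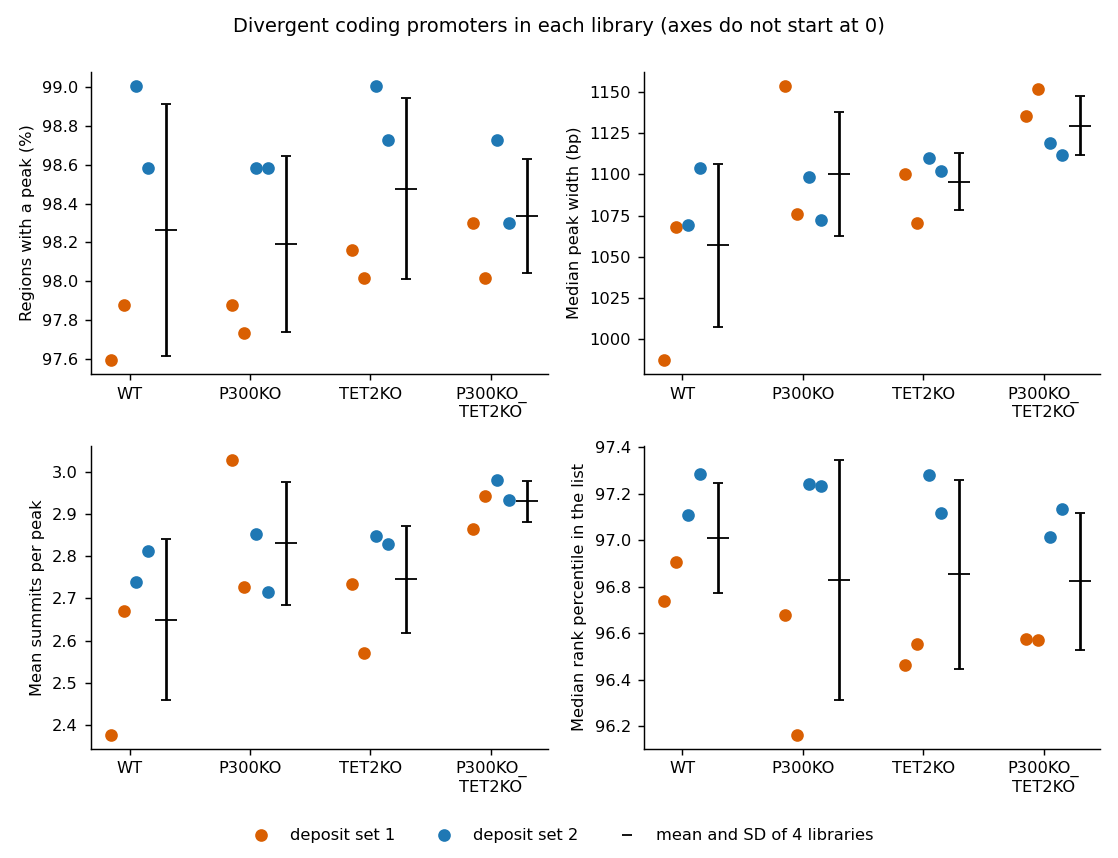
Share of divergent promoter regions with a peak (%), median width (bp), mean summits per peak and median rank percentile in each library, by genotype, with the mean and SD of 4 libraries beside the points and colours for the deposit sets. P300KO_TET2KO libraries lie above TET2KO libraries in width (1112 bp or more against 1110 bp or less) and summits, a separation lost in width under 1 alternative and in summits under 3, and the deposit sets separate in rank (96.2 to 96.9 in set 1, 97.0 to 97.3 in set 2).

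With the deposit sets pooled, median rank differed by less than the spread between libraries. The median rank percentile of members was 97.0 ± 0.237 for WT, 96.8 ± 0.516 for P300KO, 96.9 ± 0.405 for TET2KO and 96.8 ± 0.294 for P300KO_TET2KO (SD, n = 4), with overlapping ranges, and was 96.6 ± 0.217 in deposit set 1 and 97.2 ± 0.0975 in set 2. Within set 1, both WT libraries (96.74 and 96.91) lay above all others (96.16 to 96.68). P300KO differed from WT by -0.403 points in set 1 and 0.0407 in set 2, and TET2KO by -0.315 and 0.0015. P300KO_TET2KO differed from TET2KO by 0.0637 and -0.125. Each region was then tested with limma on its percentile among the 38694 regions found in all 16 libraries, with the deposit set in the model. None of the 685 members had an adjusted p of 0.05 or less in any of the 4 contrasts. Over all regions, 0.0207% rose and 0.093% fell in P300KO_TET2KO against TET2KO, 0.297% and 0.68% in P300KO against WT, 0.00258% and 0.0439% in TET2KO against WT, and 0.0698% and 0.22% in P300KO_TET2KO against P300KO. At an unadjusted p under 0.05, limma gave 31, 67, 69 and 50 members in these contrasts (4.53%, 9.78%, 10.1% and 7.3%), against 8.21%, 16.1%, 11.1% and 9.17% of all regions. The median absolute change in P300KO_TET2KO against TET2KO was 0.942 points for members and 2.74 points for all regions, and members sit near the top of a scale that ends at 100.

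The member with the lowest p in each contrast is given here with its rank in the whole list and its limma change among common regions. Hras/Lrrc56, the promoter of the small GTPase Hras, ranked at 96.4, 98.2, 97.4 and 97.7 in WT and 99.3, 99.0, 98.2 and 98.6 in P300KO. The groups did not overlap, and the change was 3.98 ± 1.03 points (SE; limma adjusted p = 0.0596). Atp5c1/Kin, with the gamma subunit of mitochondrial ATP synthase and a DNA-binding protein, ranked at 98.25, 98.2, 98.2 and 98.8 in TET2KO and 96.1, 95.3, 97.5 and 98.2 in P300KO_TET2KO. The groups again did not overlap, at a change of -4.29 ± 1.16 points (limma adjusted p = 0.179). Vta1/Nmbr, with an endosomal sorting factor and the neuromedin B receptor, ranked at 94.1, 93.5, 97.2 and 97.3 in WT and 96.0, 97.6, 98.3 and 97.9 in TET2KO, overlapping, with a change of 5.83 ± 1.31 points (limma adjusted p = 0.143).

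Peg3/Usp29 had the lowest p in P300KO_TET2KO against P300KO. Both genes are imprinted and are expressed from the paternal allele. Its rank was 68.4, 70.2, 86.9 and 81.2 in WT, 72.2, 32.55, 79.8 and 72.3 in P300KO, 74.3, 79.1, 87.4 and 87.3 in TET2KO and 78.3, 76.5, 82.4 and 85.3 in P300KO_TET2KO. P300KO replicate 2 stood far below all other libraries, the groups overlapped, and the change was 23.2 ± 6.45 points (SE; limma adjusted p = 0.171). In no library did the strongest peak of the region cover both gene starts, and the strongest summit lay 856 bp to the left of the Peg3 start, on the Peg3 side.

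The median SD of a member's rank over the 16 libraries was 0.873 points, on a scale that ends at 100 and on which most members sit near the top. The 6 with the largest SD, chosen after their values were seen, were the stronger region of P3h4/Fkbp10, Peg3/Usp29, Bend6/Dst, the stronger region of Tssk3/Fam229a, Polr3a/Rps24 and Sgce/Peg10, with SDs from 16.4 to 10.9 points. P3h4/Fkbp10 was at 22.5 in WT replicate 1 and at 83.3 to 90.9 in the other 15 libraries. Bend6/Dst was at 36.5 in WT replicate 1, 51.0 in P300KO replicate 2 and at least 72.3 in the rest, and Polr3a/Rps24 was at 48.3 in WT replicate 1, 72.7 in P300KO replicate 2 and at least 80.1 in the rest. The 2 libraries that gave these low values were also those with the smallest share of members present. The deposit sets did not overlap at Polr3a/Rps24, with 48.3 to 85.8 in set 1 and 89.4 to 92.7 in set 2. Sgce/Peg10 is another imprinted pair with paternal expression, and its spread did not rest on 1 library. Its lowest values were 50.75 in TET2KO replicate 1 and 52.1 in P300KO replicate 1, and its highest was 84.7. It ranged from 50.75 to 77.4 in set 1 and from 76.0 to 84.7 in set 2.

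**Figure D5:**
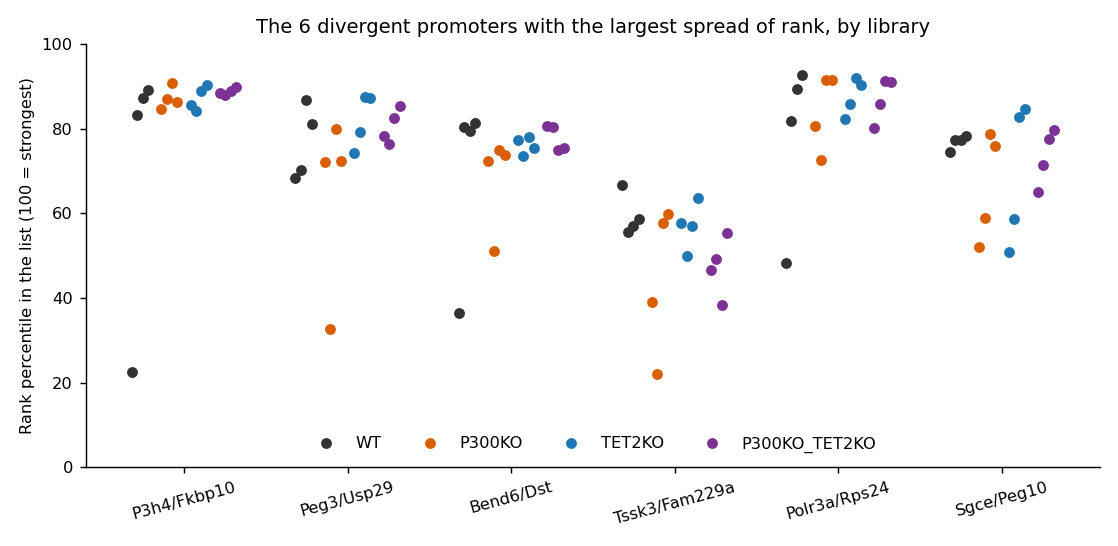
Rank percentile in the list (100 is the strongest peak) of the 6 divergent promoters with the largest SD over 16 libraries, with 1 point for each library and colours for the genotypes. Deposit sets are not marked. At P3h4/Fkbp10 a single WT library at 22.5 lies apart from 15 libraries at 83.3 to 90.9, while the points of Sgce/Peg10 spread from 50.75 to 84.7.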

How the data were processed

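ATAC-seq peak lists of 16 HSPC libraries were used, 4 for each genotype. Per the labels and the study's methods, the authors trimmed reads with cutadapt 1.9.1, aligned them to mm10 with Bowtie2 2.2.6, removed duplicates, shifted reads for Tn5 insertion and called peaks for each library with MACS2 2.1.0. The deposited lists give for each summit a fold enrichment over local background, which was not used for tests, and the authors' −log10 p and −log10 q, which depend on depth and were compared only as ranks within a list.

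Rows with the same interval were counted as 1 peak with several summits. Overlapping peaks (1 bp) on chromosomes 1 to 19 were joined (Python 3.11.15, pandas 2.3.3). Gene starts came from GENCODE M21, and sequences and gene coordinates from the mm10 reference. The members, gene lists, markers, strings and tests were chosen with earlier results of these data known. Because of this, exact permutation p-values of summaries over the members were computed for the tables and are not given in the text, which describes such summaries by values, SD and counts of libraries. Ranks of 38694 regions found in all 16 libraries were tested with limma 3.58.1 in R 4.3.3, with trend, deposit set as a covariate and Benjamini-Hochberg adjustment over all of them. The fit and the region calls were tested on simulated data. P-values measure only the spread between libraries.

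Pairs and regions were named by rule: 10 known pairs, of which 1 is not reported here, up to 3 members per contrast past the limma threshold or else the 1 with the lowest p, members gained or lost, the 5 of highest rank, the 5 widest, the 3 with most summits, and groups by gene symbol. Interval sequences of at most 300 bp were meant for known, changed and gained or lost pairs, and those of the strongest and widest pairs, and the 6 members of largest spread, were chosen after their values were seen. Alternatives were peaks whose −log10 q reached 2, the strongest 50000 peaks, starts at most 300 bp apart, peaks over the interval alone, each deposit set alone, other strata, a replicate block, other rank scales, a looser call and leaving out each library. The lncRNA-partner comparison was added to describe single promoters. The authors' merged peak files were not used here.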

Additional observations from a re-analysis of the deposited data

Results flagged for a closer look

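Ranks of named promoters and the 4 measures of the set were examined for a library far from the other 3 of its genotype. Of 98 groups of 4, 4 had such a library (4.1%). The rule would flag about 1 in 20 groups of normally distributed values, and ranks that sit near 100 need not be so distributed. Peg3/Usp29 was at 32.55 in P300KO replicate 2, the lowest of its genotype, where the other 3 were at 72.2 to 79.8. Atp5c1/Kin was at 98.79 in TET2KO replicate 4, above 98.22 to 98.25 in the other 3. Tmem126b/Dlg2 was at 99.15 in WT replicate 1, below the others at 99.93 to 99.99. Cib1/Gdpgp1 was at 99.38 in P300KO replicate 2, below 99.89 to 99.98. The last 3 deviations were less than 1 point of rank.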

How the results depend on the processing

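The difference in summits per peak without p300 (0.1833) was above 0 under all alternatives. It was 0.3034 in deposit set 1 alone and 0.0633 in deposit set 2 alone, and 0.1457 to 0.2209 when each library was left out. A replicate block cannot move the mean difference (0.1833) in a balanced design. The count of members with a changed rank was 0 in the 4 contrasts with the block. Replicate numbers were not taken to pair libraries: the correlation of rank deviations from the genotype and set means between same-numbered libraries took 12 distinct values, -0.124 to 0.068 over all common regions (0 over 0.1) and -0.274 to 0.106 over divergent regions (1 over 0.1). The width difference without p300 (38.625 bp) was 73.0 bp in set 1 alone, 4.25 bp in set 2 alone, 43.125 bp with starts at most 300 bp apart and 28.5 to 48.75 bp when each library was left out. For Tet2 loss, width was 40.375 bp over the interval alone and 23.875 to 44.125 bp when each library was left out, and summits (0.0979) were 0.0603 to 0.1355, lowest without P300KO replicate 2 (0.0603) or WT replicate 1 (0.0613). Permutation tests of these summaries were kept to the tables and support no statement here. Their side of the threshold changed under 8 alternatives for summits and 6 for width without p300, the replicate block among the 8, and under 3 for width and 1 for summits for Tet2 loss. Small differences changed sign, and the cause was not tested. Presence without p300 was 0.0354 points for the strongest 50000 peaks and 0.0708 in set 1, presence for Tet2 loss was -0.0439 with starts at most 300 bp apart, and presence in P300KO_TET2KO against TET2KO was 0.0708 over the interval alone and in set 1 (-0.2951 to 0.0354 when each library was left out). Rank in that contrast was 0.0637 in set 1 and -0.1601 to 0.1112 when each library was left out. The p300 by Tet2 interaction in summits was -0.0352 for the strongest 50000 peaks, -0.0565 over the interval alone, -0.1045 in set 1 and -0.0719 to 0.0786 when each library was left out; in presence 0.2833 over the interval alone and -0.1771 to 0.0354; in width 10.5 bp in set 2 and -29.5 to 11.0 bp; and in rank -0.1653 in set 2.

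Members gained or lost numbered 1 (Dedd2/Zfp526) in P300KO_TET2KO against TET2KO in set 1, 1 under the looser rule and 2 in set 2 (Duox2/Duoxa2, Lypd4/Dmrtc2) in P300KO against WT, 2 under the looser rule and 1 in each set (Fhod1/Slc9a5, Nr2e1/Ostm1) in TET2KO against WT, and 1 under the looser rule and in set 2 (Duox2/Duoxa2) in P300KO_TET2KO against P300KO. Over all regions, 0.374% to 2.17% were called in 1 direction in a set alone. When each library was left out the members' counts were 0 to 1, where 0.00893% to 0.205% of all regions were called. Members with a changed rank numbered 1 in P300KO against WT on the normal score (Hras/Lrrc56, adjusted p = 0.0496 by limma), and 0 to 1 when each library was left out (Mrpl32/Psma2 without WT replicate 2, Dync2h1/Dcun1d5 without TET2KO replicate 4). Over all regions, limma calls in P300KO against WT (115 higher, 263 lower) became 48 and 152 with the replicate block and 1 and 14 without the deposit set, and in P300KO_TET2KO against TET2KO (8 and 36) they became 7 and 31, and 3 and 12. In all, 495 of 555 alternative values were the same as the main one. For differences this means the same direction and side of the threshold, and for counts of members a count that stayed at 0. Without counts, depth could not be set against any value.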
